A study of Mus musculus with 6 samples.

Results

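Transcripts of centrosomal genes were compared between Nxf2 knockout (KO) and wild-type (WT) mouse testes at postnatal day 21. The group held every gene on the array whose current symbol is Cep followed by a digit, 37 genes, together with 9 listed centrosome genes. The listed Azi1 is now called Cep131, which the naming rule also takes, so there were 45 genes of the 18193 with a symbol of their own on the array. The measured value that entered the choice was the mean signal over all 6 arrays, which picked 1 probe set per gene and takes no account of genotype. All 45 passed the filter on dim probe sets, which left 12971 genes in all.

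The samples were 3 KO testis samples (Nxf2 KO1, KO2 and KO3) and 3 WT samples (WT1, WT2 and WT3), each hybridised to 1 Affymetrix array after biotin labelling of amplified RNA. The study reports that testis weight was alike in both genotypes at this age. Nxf2 is an X-linked germ cell relative of the mRNA export receptor gene Nxf1. The labels do not give the strain, the deleted part of Nxf2 or the number of animals per sample, and the p-values given here therefore cover only sample-to-sample spread, which may be technical. The Nxf2 probe set had signals of 116, 106 and 131 in KO arrays, against 374, 340.4 and 386 in WT arrays, a log2 fold change of -1.59 (limma adjusted p = 0.000488), so no array went against its label. Whether the probe set lies in the deleted part is not known. Whole-testis RNA mixes germ cells and somatic cells, and fewer cells of a type cannot be told apart here from less RNA per cell.

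The centrosome is built around centrioles, short barrels of microtubules that duplicate when a cell divides, and around a protein matrix that nucleates and anchors microtubules. Cep proteins were named for being found there, and they serve different steps: building the centriole, recruiting the matrix, linking centrosomes, and adding the appendages that let a centriole dock at the membrane and template a cilium. In the testis, centrosomes organise the meiotic spindles of spermatocytes, and in round spermatids a centriole becomes the basal body of the sperm tail. Testes of juvenile mice are still filling with the later germ cell stages.

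In KO testes 5 of the 45 genes were lower and none was higher at an adjusted p under 0.05 (limma, Benjamini-Hochberg over all 27022 tested probe sets). The 5 were Cep72, Cep57, Cep89, Cep44 and Cep295nl, with log2 fold changes between -0.73 and -0.25. At an unadjusted p under 0.05, 14 were lower and 3 higher (Ofd1, Nin and Cep170b). The share of all genes at that threshold was not worked out. Unadjusted counts, here and below, are therefore not read as an excess. Among all genes represented by their brightest probe set, 10.3% were called in either direction, 7.37% lower and 2.98% higher. In this fit the 11.1% lower among the 45 is therefore near the background and is not read as a property of the group. Under other settings, given below, the count ran from 0 to 13 and its distance from the background moved. Over all probe sets, 7.49% were called, with 1414 (5.23%) lower and 610 (2.26%) higher. After median centring of each array these became 1509 and 353.

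The shifts were small and mostly downward. The median log2 fold change of the 45 was -0.11, against 0.036 over all genes, and 35 of the 45 (77.8%) were below 0, against 43.1% of all genes. In 17 of the 45 genes (37.8%) the 3 KO values lay all below the 3 WT values, a separation found in 18.3% of all genes. In 3 genes (6.67%) they lay all above, against 21.5% of all genes. These are descriptions of a list chosen with earlier results known, and no test of the list against other genes was made.

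**Figure D1:**
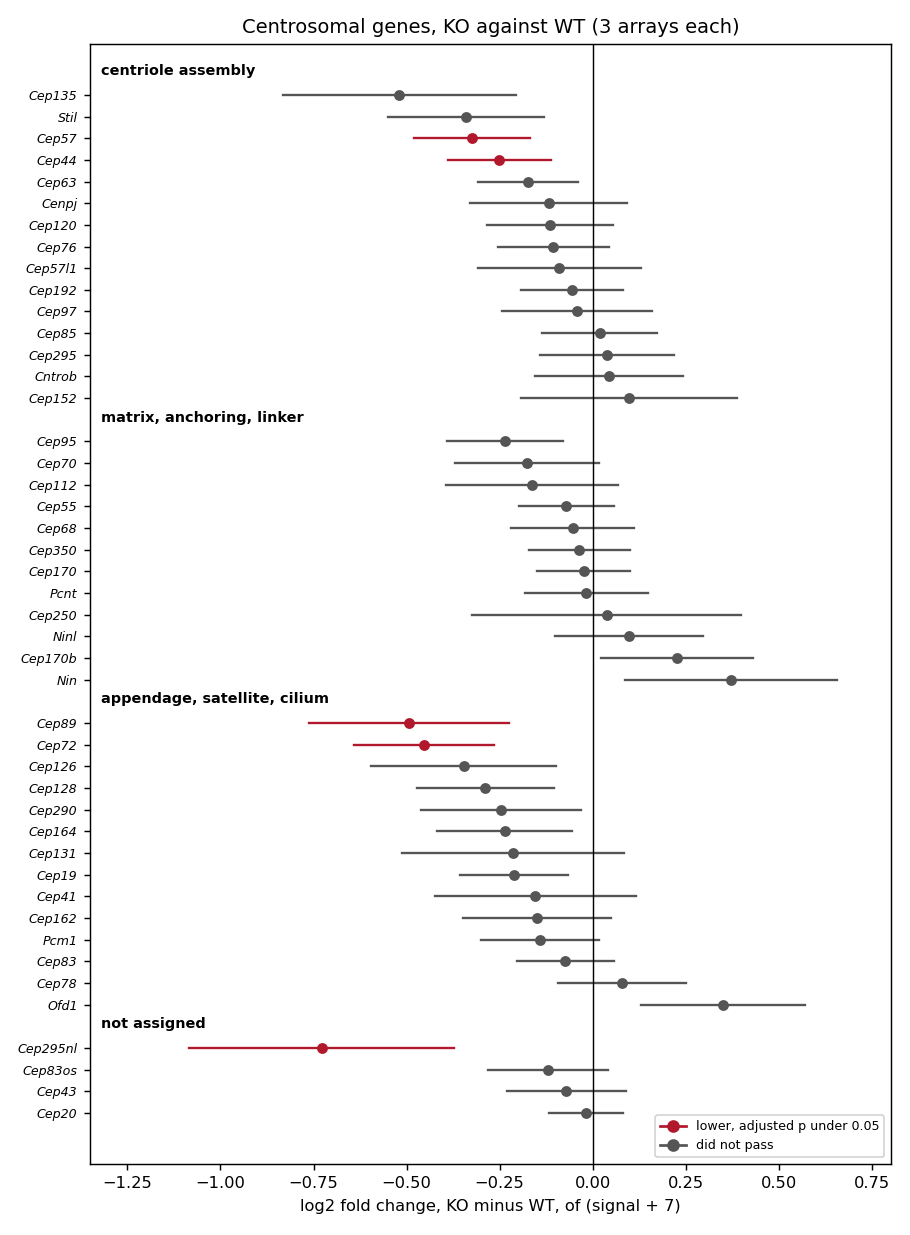
Log2 fold change (KO minus WT, of signal + 7) of the 45 centrosomal genes with its 95% interval, 1 row per gene, grouped by role. The 5 genes in red were lower at an adjusted p under 0.05, and Nin and Ofd1 have the highest values, 0.37 and 0.35.

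Among 15 genes of centriole assembly and duplication, Cep57 and Cep44 fell in KO and 13 did not pass the test, with a median log2 fold change of -0.11. The lower genes made up 13.3% of this group, against 7.37% of all genes, and are not read as a property of it. In 40% of the group every KO value lay below every WT value, against 18.3% of all genes. Cep57 keeps centrioles engaged and recruits Cep63 to the centrosome. Its probe set 1428968_at had signals of 483, 449 and 414 in KO arrays, against 576, 563 and 549.6 in WT arrays. All KO values were below all WT values, and the KO arrays were spread more widely than the WT arrays. The means were 449 ± 34.8 in KO and 563 ± 13.1 in WT (SD, n = 3 each), for a log2 fold change of -0.32 ± 0.0696 (SE, limma adjusted p = 0.0246). A further probe set of Cep57 gave 295, 294 and 249 in KO arrays, against 419.6, 455 and 354 in WT arrays, and was also lower (log2 fold change -0.54, limma adjusted p = 0.0182).

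Cep44, which in human cells binds the centriole wall and recruits POC1B there, had signals of 435, 437 and 415 in KO arrays, against 530.3, 514 and 491 in WT arrays (probe set 1434462_at). The groups did not overlap, and the KO arrays lay close together. The means were 429 ± 12.3 in KO and 512 ± 19.5 in WT (SD, n = 3 each), for a log2 fold change of -0.25 ± 0.0623 (SE, limma adjusted p = 0.0392). Its next probe set was also lower, with 133, 130.1 and 140.2 in KO arrays, against 173, 189 and 171 in WT arrays (log2 fold change -0.38, limma adjusted p = 0.0367). Poc1b, which encodes a centriole wall protein and is described with the other centrosome genes below, was lower in KO as well.

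Cep135 and Stil lay just outside the threshold. Cep135, which joins the cartwheel at the centriole's core to its wall, had signals of 48.7, 58.6 and 56.1 in KO arrays, against 77.1, 95.8 and 71.5 in WT arrays. Its log2 fold change was -0.52 ± 0.140 (SE), with an adjusted p of 0.0517 (limma) and no overlap between the groups. Stil, with which the kinase Plk4 starts a new centriole, had 234, 266 and 215 in KO arrays, against 294, 322 and 293 in WT arrays. Its log2 fold change was -0.34 ± 0.0943 (limma adjusted p = 0.0553), again without overlap. Cep135 passed in 4 of 14 alternatives and Stil in 5 of 15, with limma adjusted p values up to 0.140 and 0.149.

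The other assembly genes had smaller differences, and none passed. Cep63, which with Cep152 recruits Plk4, had 1035, 965 and 892 in KO arrays, against 1036, 1113 and 1109 in WT arrays (log2 fold change -0.17, limma adjusted p = 0.10). KO replicate 1 lay at the level of WT replicate 1. Cep85, a Stil partner, averaged 825 ± 48.8 in KO and 815 ± 65.6 in WT (SD, n = 3 each), with a log2 fold change of 0.02 (95% interval -0.14 to 0.17). Median centring turned the signs of Cep85, Cep250 and Cep295.

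The listed genes of centriole elongation also had values on both sides of 0. Cenpj (CPAP), which sets centriole length, had 380.3, 391 and 305 in KO arrays, against 378, 386 and 401 in WT arrays (log2 fold change -0.12, limma adjusted p = 0.435). Only KO replicate 3 lay below the WT arrays, and without it the log2 fold change was -0.01. Cntrob (centrobin), a daughter centriole protein, had 392, 376 and 315 in KO arrays, against 345, 339 and 361 in WT arrays (log2 fold change 0.04, limma adjusted p = 0.774). KO replicates 1 and 2 were above every WT array and KO replicate 3 below them. The other 7 assembly genes, Cep57l1, Cep76, Cep97, Cep120, Cep152, Cep192 and Cep295, had log2 fold changes between -0.11 and 0.10.

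**Figure D2:**
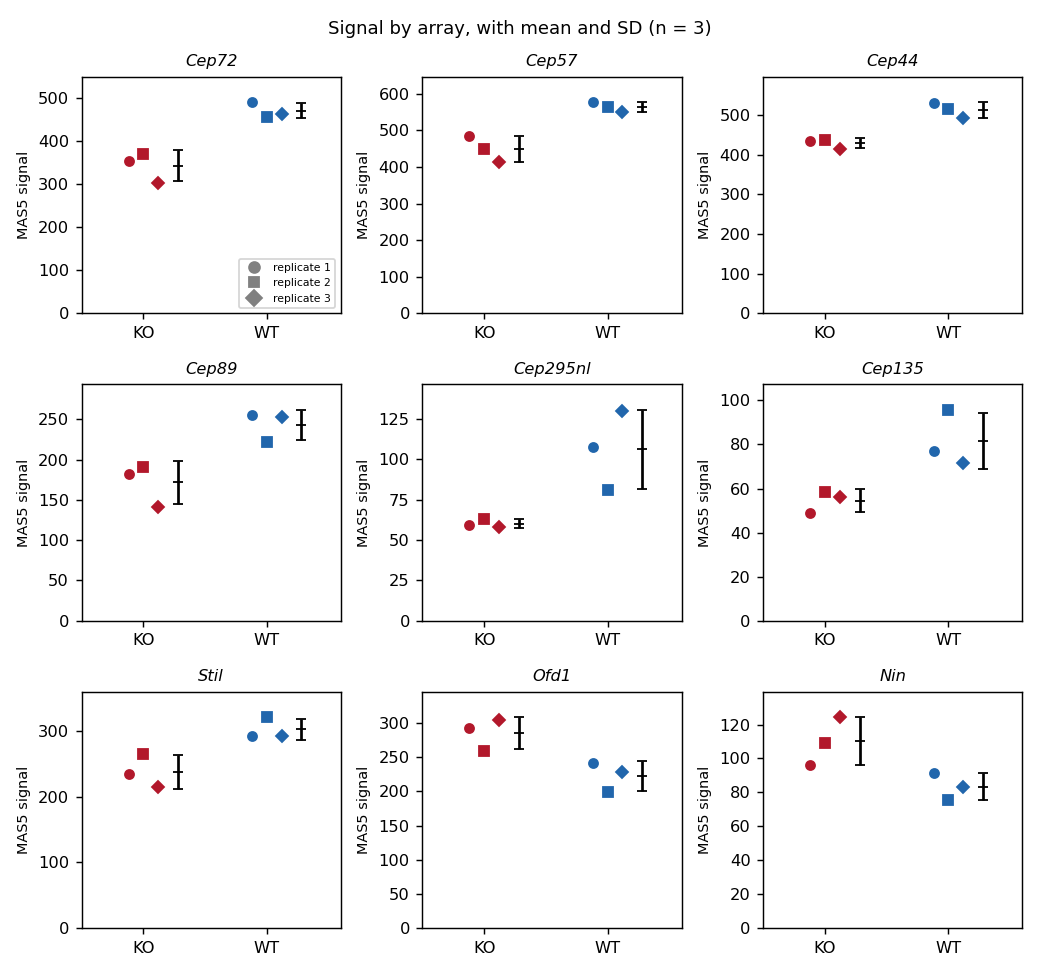
MAS5 signal of 9 centrosomal genes on each array (KO in red, WT in blue, marker shape by replicate number), with mean and SD (n = 3) as black bars; each vertical axis starts at 0. The 5 lower genes, Cep135 and Stil have no KO value above a WT value, and Ofd1 and Nin have no KO value below a WT value.

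Among 14 genes of appendages, satellites and cilium formation, Cep72 and Cep89 fell in KO and 12 did not pass, with a median log2 fold change of -0.21. The lower genes made up 14.3% of this group, against 7.37% of all genes, and are not read as a property of it. Cep72 encodes a protein of pericentriolar satellites, granules that carry proteins to the centrosome and basal body. Its probe set 1429346_a_at had signals of 355, 371 and 302 in KO arrays, against 490.0, 457 and 464 in WT arrays. The highest KO value was well below the lowest WT value. The means were 343 ± 36.0 in KO and 470.3 ± 17.4 in WT (SD, n = 3 each), and the log2 fold change was -0.45 ± 0.0846 (SE). Its adjusted p of 0.0153 (limma) was the lowest of the 45 genes.

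Cep89 encodes a protein of the distal appendages, by which the mother centriole docks at a membrane. Its probe set 1456848_at had 182, 191 and 141 in KO arrays, against 255, 221 and 253 in WT arrays. KO replicate 3 stood lowest, and the groups did not overlap. The means were 172 ± 26.7 in KO and 243 ± 18.9 in WT (SD, n = 3 each), for a log2 fold change of -0.49 ± 0.121 (SE, limma adjusted p = 0.0378). Its other 2 probe sets did not pass and overlapped between the groups, with log2 fold changes of -0.15 and -0.28 (limma adjusted p = 0.361 and 0.153).

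Ofd1, the X-linked gene among the 45, had higher values in KO. It encodes a protein of satellites and of the distal end of centrioles that is needed to form cilia. Its signals were 293, 259 and 305 in KO arrays, against 241, 199 and 228 in WT arrays. Every KO value was above every WT value, with a log2 fold change of 0.35 ± 0.0989 (SE), but the gene did not pass (limma adjusted p = 0.0599). Cep78, the other gene of the group with a value above 0, averaged 274 ± 6.15 in KO and 259 ± 13.2 in WT (SD, n = 3 each; log2 fold change 0.08, limma adjusted p = 0.536).

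Several appendage and transition zone genes were below WT on every KO array without passing the test. With Cep72 and Cep89, such separation was seen in 7 of the 14 genes (50%), against 18.3% of all genes. Cep128, of the subdistal appendages, had 526, 518 and 427 in KO arrays, against 580, 594 and 620 in WT arrays (log2 fold change -0.29, limma adjusted p = 0.0619). Its 3 further probe sets had log2 fold changes of -0.43, -0.44 and -0.54, the nearest to the threshold at a limma adjusted p of 0.0536. Cep19 had 423, 416 and 382 in KO arrays, against 475, 473 and 469 in WT arrays (log2 fold change -0.21, limma adjusted p = 0.0735). Cep126 (log2 fold change -0.35), Cep162 of the transition zone (-0.15) and Cep83 at the base of the distal appendages (-0.07) were likewise separated, with limma adjusted p values of 0.0827, 0.296 and 0.429.

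By the probe sets used, the other cilium genes overlapped between the groups. Cep164, which recruits the machinery for membrane docking, had a log2 fold change of -0.24 (limma adjusted p = 0.0983), and Cep290, a transition zone gene, one of -0.25 (limma adjusted p = 0.132). Pcm1, the scaffold of the satellites, had 881, 900.2 and 756 in KO arrays, against 890.5, 985 and 918 in WT arrays (log2 fold change -0.14, limma adjusted p = 0.222). Its overlap came from KO replicate 2, which lay above WT replicate 1. Cep131 (the listed Azi1), a satellite protein that mice need for sperm tails, had 85.7, 70.0 and 61.8 in KO arrays, against 84.4, 81.5 and 87.7 in WT arrays (log2 fold change -0.21, limma adjusted p = 0.316). Cep41, which serves tubulin glutamylation in cilia, had a log2 fold change of -0.15 (limma adjusted p = 0.426).

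None of 12 genes of the matrix, of microtubule anchoring and of the linker between centrosomes passed by limma, and their median log2 fold change was -0.03. Over all genes 7.37% were lower and 2.98% higher. At an unadjusted p under 0.05, 1 of the 12 was lower and 2 were higher, without a share over all genes to set beside them. Nin (ninein), which anchors microtubules at the subdistal appendages, had 96.4, 109 and 125 in KO arrays, against 91.4, 75.7 and 83.0 in WT arrays. Every KO value was above every WT value (log2 fold change 0.37 ± 0.128 SE, limma adjusted p = 0.0984). Cep170b had 331, 316 and 362 in KO arrays, against 298, 256 and 307 in WT arrays, also without overlap (log2 fold change 0.23, limma adjusted p = 0.143). Such separation above WT was found in 16.7% of the 12 genes, against 21.5% of all genes. Cep170, the subdistal appendage gene of the same family, averaged 748 ± 36.0 in KO and 760.1 ± 26.1 in WT (SD, n = 3 each), for a log2 fold change of -0.02 with a 95% interval of -0.15 to 0.10.

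Pcnt (pericentrin), the main scaffold of the matrix, had 422, 500.2 and 486 in KO arrays, against 466, 484 and 473 in WT arrays. The KO arrays lay on both sides of the WT arrays, with a log2 fold change of -0.02 (95% interval -0.18 to 0.15), whose sign quantile normalization turned. Ninl, the ninein-like gene, had 414, 435 and 397 in KO arrays, against 358, 366 and 444 in WT arrays (log2 fold change 0.10, limma adjusted p = 0.498). Cep55, needed for abscission and present at the bridges between germ cells, averaged 743 ± 44.6 in KO and 779 ± 14.4 in WT (SD, n = 3 each; log2 fold change -0.07, limma adjusted p = 0.437).

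Cep95 was nearest to the threshold among those of this group with a negative value, with 565, 509 and 487 in KO arrays, against 617, 585 and 637 in WT arrays (log2 fold change -0.24 ± 0.0696 SE, limma adjusted p = 0.0673). Another probe set of Cep95 did pass, with 88.6, 96.9 and 80.1 in KO arrays, against 128, 124 and 122 in WT arrays (log2 fold change -0.46, limma adjusted p = 0.0336). The linker genes Cep68 and Cep250 had log2 fold changes of -0.05 and 0.04, and Cep70, Cep112 and Cep350 ones of -0.18, -0.16 and -0.04. For the probe sets used for Cep95, Cep70 and Cep112, 25% of this group, every KO value lay below every WT value, against 18.3% of all genes. The 95% interval of Cep250 ran from -0.32 to 0.40.

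The deepest fall belonged to Cep295nl, a gene named for its likeness to the N-terminal part of Cep295 and formerly called Ddc8. Its probe set 1450469_at had signals of 59.6, 63.2 and 57.9 in KO arrays, against 108, 80.7 and 130 in WT arrays. The KO arrays lay close together and the WT arrays did not. The means were 60.2 ± 2.71 in KO and 106 ± 24.6 in WT (SD, n = 3 each), for a log2 fold change of -0.73 ± 0.160 (SE, limma adjusted p = 0.0265). Cep295 itself, which turns new centrioles into centrosomes, had 270, 246 and 238 in KO arrays, against 244, 243 and 245 in WT arrays (log2 fold change 0.04, limma adjusted p = 0.791). The difference between these genes was not tested. Cep43 (FOP), Cep20 and the noncoding Cep83os, which carries the name of the opposite strand of Cep83, had log2 fold changes of -0.07, -0.02 and -0.12 and did not pass.

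The promoter sequences of the lower genes are shown as a description. These genes were picked for being lower, so their common direction says nothing on shared regulation. RefSeq windows (GRCm38.p6, 250 bases before to 50 after a gene's start) were found for 38 of the 45 genes and for 4 of the 5 lower ones, and Cep295nl had no entry. Each is printed 5′ to 3′ on the gene's strand in lower case, with capitals marking the letters GTTGCC (core of the RFX site), TAACNG (MYB site) and TGACG (core of the cyclic AMP response element, CRE), searched on both strands.
Cep57: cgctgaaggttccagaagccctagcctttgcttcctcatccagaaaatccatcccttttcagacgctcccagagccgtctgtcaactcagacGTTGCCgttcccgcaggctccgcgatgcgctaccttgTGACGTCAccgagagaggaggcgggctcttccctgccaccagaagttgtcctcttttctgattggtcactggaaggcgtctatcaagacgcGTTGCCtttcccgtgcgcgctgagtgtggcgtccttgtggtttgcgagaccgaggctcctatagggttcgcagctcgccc
Cep72: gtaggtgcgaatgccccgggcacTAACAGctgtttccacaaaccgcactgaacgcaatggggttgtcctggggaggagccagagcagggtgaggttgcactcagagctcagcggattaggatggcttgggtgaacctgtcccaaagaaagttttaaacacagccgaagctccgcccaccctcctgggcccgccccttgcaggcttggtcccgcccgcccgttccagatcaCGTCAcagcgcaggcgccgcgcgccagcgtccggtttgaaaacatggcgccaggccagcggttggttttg
Cep89: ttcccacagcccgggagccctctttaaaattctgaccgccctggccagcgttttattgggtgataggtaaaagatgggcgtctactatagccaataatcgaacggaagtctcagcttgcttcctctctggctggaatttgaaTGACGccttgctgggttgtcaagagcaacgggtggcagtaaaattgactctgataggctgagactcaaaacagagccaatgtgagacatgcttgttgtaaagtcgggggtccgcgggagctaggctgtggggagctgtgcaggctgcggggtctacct
Cep44: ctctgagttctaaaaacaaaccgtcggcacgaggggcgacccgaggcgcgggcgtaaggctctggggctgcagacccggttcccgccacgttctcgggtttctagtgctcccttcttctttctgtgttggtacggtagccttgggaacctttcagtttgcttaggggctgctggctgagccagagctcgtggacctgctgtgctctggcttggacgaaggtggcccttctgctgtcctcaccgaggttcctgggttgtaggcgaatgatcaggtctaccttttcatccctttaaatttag
The Cep57 window lies at chr9:13827004-13827303 on the minus strand and holds GTTGCC at positions 93 and 221, counted from its 5′ end. Its capitals at position 130 form the full CRE, TGACGTCA, in which 2 TGACG matches overlap. The Cep72 window (chr13:74062236-74062535, minus strand) holds a MYB match at position 24 and a CRE core at position 231. The Cep89 window (chr7:35396813-35397112, plus strand) holds a CRE core at position 143, and that of Cep44 (chr8:56550517-56550816, minus strand) holds none of these letters.

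Over all 47 windows of the 38 genes, GTTGCC was found in 19.1%, TAACNG in 36.2%, TGACGTCA in 4.26% and TGACG in 42.6%. Over all 32851 windows of the table the shares were 12.5%, 23.3%, 1.79% and 20.8% in the same order. Several windows can belong to 1 gene and overlap, and base composition was not matched. The shares are descriptions of letters and say nothing on whether a factor binds there.

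The downward shift was uneven over the KO arrays. KO replicate 3 gave the lowest of the 6 values in 32 of the 45 genes (71.1%), against 26.8% of all genes. With each gene's WT mean set to 0 on the log2 scale, the 45 genes had medians of -0.04, -0.05 and -0.25 in KO replicates 1, 2 and 3, against -0.00, -0.01 and 0.01 in WT replicates 1, 2 and 3. Without KO replicate 3 the median log2 fold change was -0.04 and 2 genes were lower, Cep57 (limma adjusted p = 0.0491) and Cep72 (limma adjusted p = 0.0196). Of all probe sets 3.32% were lower in that setting. In the appendage, satellite and cilium group the array medians were -0.12, -0.15 and -0.34 in KO replicates 1, 2 and 3, all below the WT medians of -0.01 to 0.00.

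**Figure D3:**
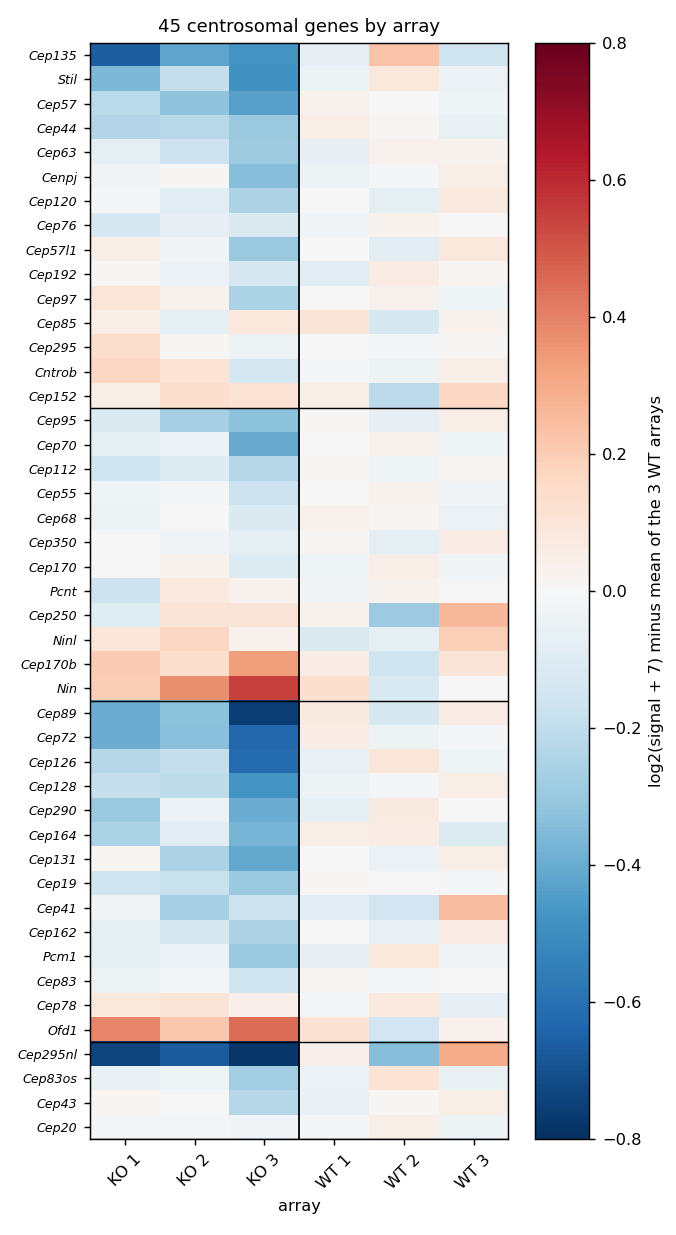
Log2(signal + 7) of each of the 45 genes minus its mean on the 3 WT arrays, by array (columns, KO left of the vertical line). Rows run, between the horizontal lines, from centriole assembly through matrix, anchoring and linker to appendage, satellite and cilium genes and the 4 genes without a group; the KO 3 column is the lowest in 32 of the 45 rows.

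The number of lower genes also depended on WT replicate 1 and on the variance model. It was 0 without WT replicate 1 (limma), where 0.529% of all probe sets were lower. When the variance was fitted without an intensity trend it was also 0, where 2.11% were lower. Without KO replicate 1 there were 3 lower genes, of which 2 were among the 5 and the other was Cep95. Without KO replicate 2 there were also 3, of which 2 were among the 5 and the other was Stil. Without WT replicate 2 there were 3 and without WT replicate 3 there was 1, all of them among the 5. Of all probe sets, 4.24% were lower without KO replicate 1 and 3.15% without KO replicate 2. The shares were 3.6% without WT replicate 2 and 2.87% without WT replicate 3. Cep72 was lost only without WT replicate 1 (limma adjusted p = 0.0908) and without the trend, among 15 alternatives. The direction of each of the 5 genes was the same in all 15.

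Markers of germ cells and of somatic cells moved on the same arrays. Of 22 tested round spermatid markers 20 were lower and none higher, and of 15 pachytene spermatocyte markers 9 were lower and none higher, with median log2 fold changes of -0.77 and -0.26 (limma). The summed signal of the pachytene list was 9245.5 to 10763.5 in KO arrays, against 11935 to 12094 in WT arrays. That of the round spermatid list was 7089 to 7781 in KO arrays, against 9715 to 10048 in WT arrays. The summed signals of both lists were lowest in KO replicate 3. The array medians relative to the WT mean were -0.20, -0.26 and -0.40 for the pachytene list in KO replicates 1, 2 and 3, lowest in KO replicate 3 as well. Those of the round spermatid list were -0.78, -0.77 and -0.66, where KO replicate 3 was not the lowest.

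KO replicate 3 was the highest array for the markers of immune, Leydig and Sertoli cells and of undifferentiated spermatogonia, both by median and by summed signal. Of 13 immune markers none passed in either direction by limma. At an unadjusted p under 0.05, 7 were higher and 0 lower, without a share over all genes to set beside them. The array medians of the immune list were 0.13, 0.35 and 0.92 in KO replicates 1, 2 and 3. Their summed signal was 2561 to 4052 in KO arrays, against 1779 to 2499 in WT arrays. Of 8 Leydig cell markers 2 were higher, with a summed signal of 3469 to 4882 in KO arrays, against 2916 to 3194 in WT arrays. Of 14 Sertoli cell markers 4 were higher, with a summed signal of 8992 to 9666 in KO arrays, against 8020 to 8428 in WT arrays, and array medians of 0.20, 0.16 and 0.32 in KO replicates 1, 2 and 3. Some markers were too dim to be tested: Spata3 and Tssk3 (round spermatid), H1f6 (pachytene), Amh (Sertoli) and Pou5f1 (spermatogonial). For elongating spermatids they were Fscn3, Prm2, Spem1 and Tssk6. Tested markers could also be dim in KO, such as Capza3 with 4.05, 0.82 and 14.4 in KO arrays, against 76.3, 37.0 and 119 in WT arrays. Of 14 elongating spermatid markers 8 were lower and none higher, and of 10 markers of undifferentiated spermatogonia 5 were higher and none lower (limma). The array medians of the spermatogonial list were 0.29, 0.25 and 0.35 in KO replicates 1, 2 and 3. The part of these cell types in the values of the centrosomal genes was not tested.

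**Figure D4:**
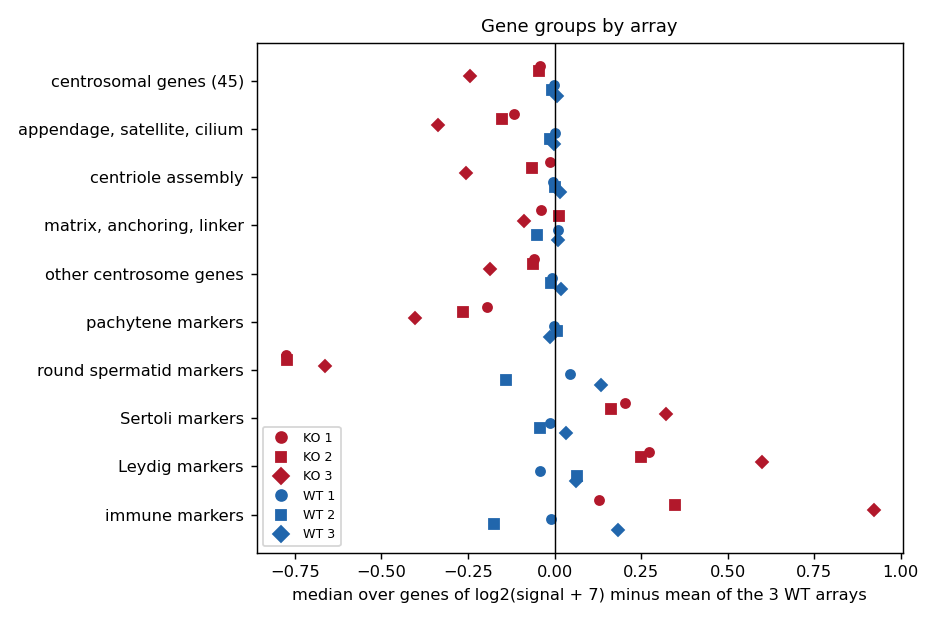
Median over genes of log2(signal + 7) minus the mean of the 3 WT arrays, for the 45 centrosomal genes, their role groups, other centrosome genes and cell type markers, with a point for each array (KO red, WT blue, shape by replicate). KO 3 is the lowest array for the centrosomal and pachytene groups and the highest for the Leydig, Sertoli and immune markers, at 0.92 for the immune list.

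Of 47 other tested centrosome and centriole genes 3 were lower (6.38%) and none higher (limma), against 7.37% lower and 2.98% higher over all genes. In this fit the count is near the background. There were 18 lower and 3 higher at an unadjusted p under 0.05, without a share over all genes to set beside them. Their median log2 fold change was -0.11, and in 17 of them (36.2%, against 18.3% of all genes) every KO value lay below every WT value. KO replicate 3 was the lowest array in 28 of the 47 (59.6%, against 26.8% of all genes). The difference between these genes and the 45 was not tested.

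Poc1b fell most clearly of them, with 102, 131 and 113 in KO arrays, against 185, 188 and 173 in WT arrays (log2 fold change -0.63 ± 0.111 SE, limma adjusted p = 0.0123). Haus1, a subunit of the augmin complex that branches spindle microtubules, had 852, 841 and 756 in KO arrays, against 990.0, 960.1 and 949.8 in WT arrays (log2 fold change -0.24, limma adjusted p = 0.0315). Nek2, the kinase that dissolves the centrosome linker, had 500.5, 514 and 443 in KO arrays, against 585, 585 and 577 in WT arrays (log2 fold change -0.26, limma adjusted p = 0.0467). Nek2 also stands in the pachytene marker list. Of 15 alternatives the call of Nek2 was lost in 9, median centring and each left-out array among them, that of Haus1 in 7 and that of Poc1b in 1 (without WT replicate 1).

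Wdr62, a spindle pole gene, and Odf2, whose product serves both the subdistal appendages and the sperm tail's dense fibres, lay just outside the threshold. Their log2 fold changes were -0.29 and -0.21, each with a limma adjusted p of 0.0516. The 5 genes nearest to the threshold in the other direction were Cetn2 (centrin 2), Haus7, Usp33, Tubgcp5 and Tubg1 (gamma-tubulin), with log2 fold changes of 0.31, 0.30, 0.15, 0.15 and 0.19 and limma adjusted p values of 0.0827, 0.108, 0.143, 0.228 and 0.251. Haus7 had 418, 404 and 557 in KO arrays, against 367, 369 and 366 in WT arrays, and the highest value was that of KO replicate 3.

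Further probe sets of the same genes gave values mostly of the same sign. In all, 27 of the 45 genes had 50 further probe sets, of which 42 were tested, and 32 of these had the sign of the probe set used. By limma 3 were lower (7.14%; Cep57, Cep44 and Cep95), against 5.23% of all probe sets, and none was higher. At an unadjusted p under 0.05, 16 were lower and 0 higher, without a share over all probe sets to set beside them. For Cep350, a large microtubule-anchoring protein gene, the probe sets gave unlike values, and their difference was not tested. The one used had a log2 fold change of -0.04, and another had -0.51 (limma adjusted p = 0.115), with 113, 168 and 126 in KO arrays, against 173, 261 and 161 in WT arrays. By their suffixes, the probe sets used for Cep112, Cep128 (both _x_at) and Pcnt (_s_at) can match transcripts of other genes, and those of Cep72, Stil and Cep57l1 (_a_at) match several transcripts of the same gene.

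**Figure D5:**
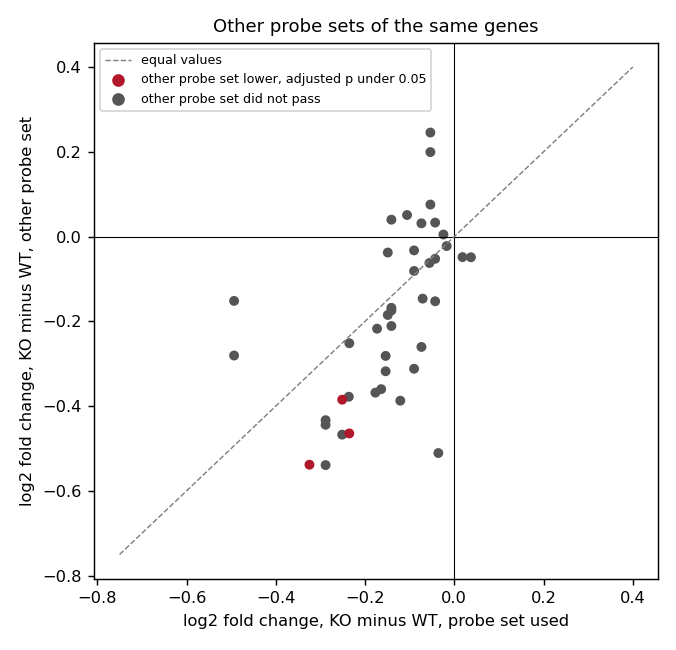
Log2 fold change (KO minus WT) of the 42 further tested probe sets (vertical axis) against that of the probe set used for the same gene (horizontal axis); the dashed line marks equal values. The 3 red points, Cep57, Cep44 and Cep95, were lower at an adjusted p under 0.05, and 32 of the 42 points share the sign of the probe set used.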

How the data were processed

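RNA of 3 Nxf2 KO and 3 WT testis samples was measured on 1 array each. The authors deposited linear signal intensity values, 1 for each probe set on each array, made with MAS5 per the submitters' processing notes (version not given in the sources used here). Trimmed by 2% at either end, the deposited values averaged 150.0 on all 6 arrays, so scaling of each array to a common level can hide a shift of all genes.

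Of 45037 probe sets that are not controls, 34945 have 1 gene symbol (932 several, 9160 unnamed here). Current symbols came from RefSeq (GRCm38.p6), matched by Entrez identifier for 34741 probe sets. Signals became log2(signal + 7), 7 being the 25th percentile of all values, which understates changes of dim probe sets. The 27022 probe sets with a mean at or above the 40th percentile (20.5) were tested with limma 3.58.1 in R 4.3.3 (intensity trend, two-sided, no covariate) with a Benjamini-Hochberg threshold of 0.05. A gene was represented by the probe set of highest mean signal. Log2 fold changes are KO minus WT with limma's moderated SE. The fit was tested on simulated data. Detection calls were not used here, and the number of arrays limits the precision.

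The genes, role groups and lists were chosen with earlier results of these data known, which includes the rule for named genes: genes called, the 9 listed, the 3 of lowest p and 2 of highest signal per role group, and 5 other centrosome genes of lowest p per direction. Other genes given with values were chosen after their values were seen. Alternatives changed the normalization, pseudocount, dim filter, variance trend, array weights, replicate block, probe sets per gene, and left out each array.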

Additional observations from a re-analysis of the deposited data

How the results depend on the processing

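All numbers of calls are by limma at an adjusted p under 0.05. The number of lower centrosomal genes, 5 of 45 in the report, was 1 without the dim filter and 0 without the variance trend. It was 7 after median centring, where 5.58% of all probe sets were lower. It was 12 with array weights, 13 with the replicate block, and 0 to 3 when an array was left out. Whether the count lies near the background therefore depends on the setting. The number of higher ones was 1 with array weights and 1 with the block. Their median log2 fold change was -0.16 to -0.04 when an array was left out. Of the other centrosome genes, 1 was lower without the dim filter, 5 with the filter at the 60th percentile, 1 without the trend, 13 with array weights, 8 with the block, 8 over all probe sets of a gene and 0 to 3 with an array left out. Of the same genes 3 were higher with array weights and 2 with the block. Over all probe sets, lower and higher calls were 817 (1.81%) and 188 (0.417%) without the dim filter. They were 569 (2.11%) and 174 (0.644%) without the trend, and 3446 (12.8%) and 3771 (14%) with array weights. With the block they were 2330 (8.62%) and 2173 (8.04%), against 5.23% lower and 2.26% higher in the report. Median centring gave 353 higher calls. Leaving out an array gave 143 to 1146 lower (0.529% to 4.24%) and 16 to 388 higher calls (0.0592% to 1.44%). Fewer arrays lower the number of calls by construction; the other causes were not tested.

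The replicate numbers were not taken as pairs. The study speaks of 3 pairs of testes but does not tie them to the numbers, and deviations from the group means correlated at 0.0793, 0.457 and 0.266 for numbers 1, 2 and 3. Unlike numbers correlated at -0.238, -0.0295, -0.316, -0.0207 and -0.334, and at 0.112 for WT replicate 1 with KO replicate 3. WT replicate 1 thus did not correlate best with its own number, and every other sample did. Whether the numbers mark the pairs was not tested. With the replicate block the centrosomal genes had 13 lower and 1 higher call, as given above, against 8.62% and 8.04% of all probe sets. The genes are 1 bright probe set each, so this background is not a like one. In the report's fit it was 5.23% lower over all probe sets and 7.37% over 1 probe set per gene. The 5 lower genes of the report were among the 13.

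Of the 45 genes, 12 changed sign in at least 1 alternative, 3 of them under median centring (Cep85, Cep250 and Cep295) and 3 under quantile normalization (Pcnt, Cep20 and Cep250). Among the named genes, 4 did. The log2 fold change of Pcnt was 0.0032 after quantile normalization, 0.011 with array weights and 0.056 without KO replicate 1. That of Cep85 was -0.019 after median centring, -0.097 with array weights, -0.014 without KO replicate 3 and -0.045 without WT replicate 2. That of Cep170 was 0.029 with array weights, 0.016 without KO replicate 3 and 0.0036 without WT replicate 2, and that of Cntrob was -0.016 without KO replicate 1. With an array left out, these ranged from -0.064 to 0.056 for Pcnt, from -0.045 to 0.069 for Cep85, from -0.050 to 0.016 for Cep170 and from -0.016 to 0.138 for Cntrob. Calls of the 5 lower genes were lost in 2 (Cep72), 6 (Cep57 and Cep89), 7 (Cep295nl) and 8 (Cep44) of 15 alternatives.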

Other observations

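Deup1, a paralogue of Cep63 that builds deuterosomes, the structures from which multiciliated cells make many centrioles, stood on the list of multiciliated cell markers. Its signals were 88.1, 107 and 86.6 in KO arrays, against 193, 150.5 and 203 in WT arrays. Every KO value was below every WT value, and the log2 fold change was -0.90 ± 0.135 (SE, limma adjusted p = 0.00692), against -0.17 for Cep63. Foxj1, a transcription factor of motile cilia on the same list, was too dim to be tested, with signals of 6.25, 4.28 and 7.02 in KO arrays, against 23.1, 14.7 and 22.6 in WT arrays. Of the list's other genes on the array, Ccno and Myb did not pass (log2 fold changes of 0.22 and 0.35, limma adjusted p = 0.351 and 0.408), and Cdc20b was too dim to be tested. The difference between Deup1 and Cep63 was not tested.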
